A study of Mus musculus with 12 samples.

Results

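Liver organoids kept with Yap on were compared with 3 control arrays picked for low Lyz2, a lysozyme gene of macrophages, from a mouse liver series of 12 microarrays. The comparison uses 6 of the 12 arrays. On the Yap-on side are the 3 arrays of organoids with doxycycline in the culture. On the control side are those of the 6 arrays labelled uninduced YFP+ hepatocyte or wild-type organoid whose Lyz2 lay below 9 on the log2 intensity scale. These were the arrays labelled hepatocyte 1, hepatocyte 3 and wild-type organoid 2, so the control labels are mixed. The control arrays were thus selected on a measured value, their Lyz2 level. They were chosen to be alike in Lyz2 alone, and their spread is that of arrays so chosen. In many other genes the array labelled wild-type organoid 2 stood apart, as described below. Lyz2 is given as a description with no test.

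All mice had the C57Bl6 background, and RNA was read on Affymetrix MoGene1.0 st arrays after amplification. For the Yap-on organoids, Yap was on for 3 weeks in the animal and for the 2 weeks of organoid culture. The control label wild-type organoid stands for 2 weeks of culture under wild-type conditions, and the label hepatocyte for YFP-positive cells that FACS isolated from the liver of uninduced mice. Organoids in which Yap was on for 3 weeks in the animal and off for 2 weeks in culture (Yap-off, 3 arrays) are given beside some results as a description. The labels used here name neither the promoter that drives Yap nor the cell type in which it was switched on. Whether the replicates are separate animals is not stated, so p-values measure the spread between these libraries alone, which may be technical.

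The Lyz2 limit fell in a wide gap. Lyz2 stood at 5.28, 6.30 and 6.19 in the arrays labelled hepatocyte 1, hepatocyte 3 and wild-type organoid 2, and the nearest value above the limit was 11.56, in the array labelled wild-type organoid 1. Those labelled hepatocyte 2 and wild-type organoid 3 read 12.04 and 12.16. In the Yap-on arrays 1 to 3 it was 2.59, 3.04 and 3.11. From here on, values in a row of 3 are in this order: Yap-on 1, 2 and 3, or hepatocyte 1, hepatocyte 3 and wild-type organoid 2.

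The 3 Lyz2-low control arrays carried duct-associated and liver-secretory transcripts side by side, so that neither duct nor hepatocyte describes them. Krt19, a keratin of bile duct cells, stood at 10.21, 9.82 and 9.28 in them, and Krt7, another duct keratin, at 9.83, 9.79 and 10.46. Alb, which encodes serum albumin, stood at 12.33, 12.13 and 11.94, and Afp, the fetal serum protein alpha-fetoprotein, at 12.20, 12.10 and 11.16. The surface protein gene Epcam, a defining marker of duct epithelium, was near the array medians (4.14 to 4.19 over the 6 arrays), at 3.76, 4.13 and 4.95. Cyp2e1, a cytochrome P450 of mature hepatocytes, was at 3.16, 3.22 and 2.74, against 10.14, 10.03 and 9.90 in the control arrays left out. The control arrays are therefore called by the rule that picked them, Lyz2-low.

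The array labelled wild-type organoid 2 stood apart from the other control arrays. Across genes, which are not independent replicates, it correlated with those labelled hepatocyte 1 and 3 at r = 0.953 and 0.955, while these correlated with each other at 0.989. It had 115 genes at least 4-fold above and 199 genes at least 4-fold below the mean of both, whereas 4 genes differed that much between the hepatocyte-labelled arrays. Its correlation with the Yap-on arrays (0.937 to 0.938) was above theirs (0.901 to 0.907). It is called the wild-type-labelled array below, and results that rest on it are given with and without it.

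Yap is a transcriptional coactivator that enters the nucleus when the kinases of the Hippo pathway are inactive and there binds TEAD factors to switch on target genes. In adult liver, Yap activity is low in hepatocytes and higher in bile duct cells. Forced Yap activity is known to enlarge the liver and to move hepatocytes toward a duct or progenitor state. TEAD factors bind DNA at short sites that contain GGAATG. The following sequences are the 250 bases before the RefSeq start of 4 genes whose results are described below, in build GRCm38.p6, read 5′ to 3′ on the gene's own strand. They show where this motif lies in 2 YAP target genes that were lower in the Yap-on arrays and in 2 genes that were higher. The genes were picked because they hold it, and capitals mark each match.
Ankrd1: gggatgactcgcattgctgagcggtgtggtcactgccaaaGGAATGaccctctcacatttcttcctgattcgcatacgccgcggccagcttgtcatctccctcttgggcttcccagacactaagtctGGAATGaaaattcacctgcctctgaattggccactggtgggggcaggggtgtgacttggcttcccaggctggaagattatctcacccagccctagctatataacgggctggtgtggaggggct
Axl: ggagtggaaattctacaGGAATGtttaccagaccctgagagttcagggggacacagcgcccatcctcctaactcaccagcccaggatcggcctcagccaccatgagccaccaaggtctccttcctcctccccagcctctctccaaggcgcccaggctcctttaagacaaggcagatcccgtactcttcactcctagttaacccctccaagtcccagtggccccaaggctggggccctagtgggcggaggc
Prap1: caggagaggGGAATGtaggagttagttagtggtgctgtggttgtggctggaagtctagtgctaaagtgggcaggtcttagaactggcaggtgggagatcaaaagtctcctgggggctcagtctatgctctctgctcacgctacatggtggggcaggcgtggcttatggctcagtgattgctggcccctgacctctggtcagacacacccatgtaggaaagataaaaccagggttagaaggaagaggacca
Muc1: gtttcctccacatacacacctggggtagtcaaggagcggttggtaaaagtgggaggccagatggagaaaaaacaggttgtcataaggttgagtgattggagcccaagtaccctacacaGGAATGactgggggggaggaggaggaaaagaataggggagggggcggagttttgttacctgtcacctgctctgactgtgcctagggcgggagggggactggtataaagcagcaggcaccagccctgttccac
The Ankrd1 stretch, chr19:36119845-36120094 on the minus strand, holds 2 matches that begin 210 and 123 bases before the start. In Axl, chr7:25788734-25788983 on the minus strand, the match begins 233 bases before it. Prap1, chr7:140093146-140093395 on the plus strand, has its match at 241 bases, and Muc1, chr3:89228806-89229055 on the plus strand, at 132 bases. On either strand of the 300-base windows in the RefSeq table (250 bases before and 50 after the start), GGAATG was found for 104 of 737 genes called higher (14.1%) and 80 of 579 called lower (13.8%). Over the 12976 tested genes with a single window it was found for 1682 (13%). The AP-1 motif TGANTCA was found in 8.14%, 6.39% and 6.95% of the same sets, and the E-box CACGTG in 8.68%, 10.5% and 8.27%. A match is a string of letters and no evidence of binding.

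Of 19937 genes, 2172 (10.9%) were called, at an adjusted p under 0.05 from limma's moderated test with Benjamini-Hochberg adjustment over all genes. In the Yap-on arrays 1243 genes (6.23%) were higher and 929 (4.66%) were lower. The fit ran over all genes, and nothing is read from the place of Lyz2 in it. The median log2 difference over all genes was -0.05. At least a 4-fold difference was reached by 328 of the higher and 277 of the lower calls, and at least 16-fold by 70 and 75. In 946 of the 1243 and 445 of the 929, the 3 Yap-on arrays also lay outside the range of all 6 arrays labelled as controls, against 9.05% of all genes above that range and 7.17% below it. All calls already lay outside the 3 Lyz2-low control arrays. Of all genes above those 3, 64.4% were above all 6, against 76.1% of the higher calls. Of all genes below those 3, 46.3% were below all 6, close to the 47.9% of the lower calls. With all 6 as controls, limma called 1053 genes.

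Single arrays moved this count. Without the array labelled wild-type organoid 2 it was 6468 (32.4%), 3545 higher and 2923 lower, and all 2172 calls were among them. It was 1131, 1156 and 1376 without Yap-on 1, 2 or 3, and 1436 without the array labelled hepatocyte 3. Where members of a gene list are counted, the count is to be read against 6.23% of all genes higher and 4.66% lower. The count without the wild-type-labelled array follows, to be read against 17.8% of all genes higher and 14.7% lower in that fit. Without that array, the sex-linked pattern described below divides the arrays as the groups do. That fit therefore cannot tell this pattern from Yap. Calls lost when another array was left out are named beside the gene.

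**Figure D1:**
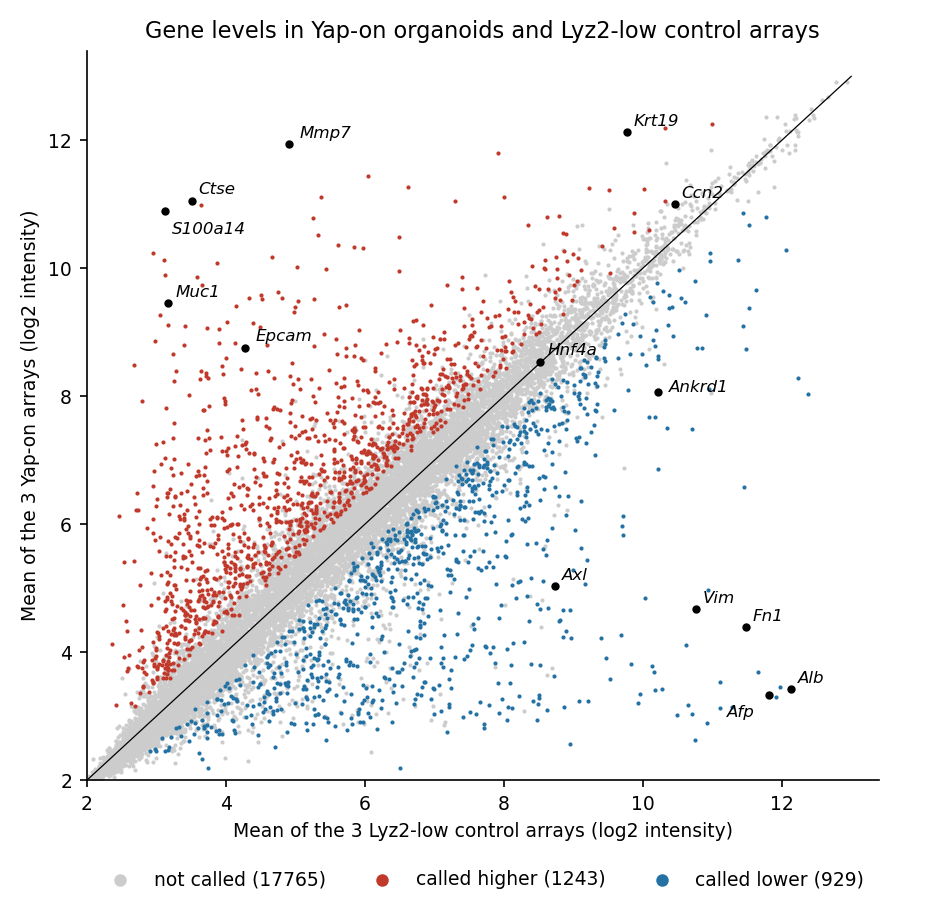
Mean log2 intensity of each of 19937 genes in the 3 Yap-on arrays (vertical axis) against the 3 Lyz2-low control arrays (horizontal axis), with the line of equal level. Red points are the 1243 genes called higher in Yap-on, blue points the 929 called lower, and grey points are not called. The secreted liver proteins Alb and Afp lie at the lower right, while S100a14, Ctse and Muc1 lie at the upper left with control means near the bottom of the scale.

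The targets by which Yap activity is usually read were not higher as a group in the Yap-on arrays. Of 26 measured YAP/TEAD target genes 1 rose and 7 fell, with a median log2 difference of -0.27 against -0.05 over all genes. Without the wild-type-labelled array 6 rose and 11 fell. Yap1 itself, as read by the array's Yap1 probes, was 7.45, 7.40 and 7.28 in the Yap-on and 7.20, 7.07 and 7.50 in the control arrays. These overlap, with a log2 difference of 0.12 ± 0.14 (SE, limma adjusted p = 0.646, 95% interval -0.22 to 0.46). Nothing in the labels says whether the probes also detect the Yap transgene.

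Ankrd1, a nuclear ankyrin-repeat protein and a standard YAP reporter gene, stood at 7.68, 7.95 and 8.57 in the Yap-on arrays. In the controls it was at 10.40, 10.07 and 10.19. Every control array lay above every Yap-on array, and Ankrd1 was 4.46-fold lower in Yap-on (limma adjusted p = 0.00207). The control arrays left out read 3.46, 3.47 and 3.39 (hepatocyte 2, wild-type organoid 1 and 3), below all Yap-on arrays, so with all 6 control-labelled arrays the difference had the opposite sign (log2 1.23, adjusted p = 0.708). Ccn1, a secreted matrix protein, was 8.99, 8.99 and 9.11 against 10.25, 10.41 and 9.92 (2.24-fold lower, adjusted p = 0.00389), and it too changed sign against all 6 (log2 1.02, adjusted p = 0.661). Ccn2, its close relative, took the other direction at 11.04, 10.95 and 11.02 against 10.40, 10.06 and 10.92. It was not called (log2 0.55 ± 0.22, limma adjusted p = 0.185), but was without the wild-type-labelled array (log2 0.78, adjusted p = 0.00421).

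Axl, a receptor tyrosine kinase for Gas6, was the target with the largest difference. It stood at 5.56, 5.25 and 4.30 in Yap-on and at 8.81, 8.55 and 8.87 in the Lyz2-low control arrays, 13.1-fold lower (limma adjusted p = 0.000663). Yap-on arrays were also below the control arrays left out (10.3, 9.17 and 9.87). Tgfb2, a TGF-beta ligand, was 3.63, 3.65 and 3.19 against 5.89, 6.15 and 5.90 (5.62-fold lower, adjusted p = 0.000215). Amotl2, an angiomotin that holds Yap in the cytoplasm, fell by 1.46 on the log2 scale, Gadd45a, a stress and DNA damage gene, by 1.25, and Lats2, the kinase that phosphorylates Yap, by 1.01. Dock5, a guanine nucleotide exchange factor, rose by a log2 of 0.65 ± 0.15 (adjusted p = 0.0375). Gadd45a and Dock5 lost the call without any 1 of the 5 arrays other than the wild-type-labelled array (largest adjusted p 0.132 and 0.152), Lats2 without any of these but hepatocyte 1 (0.114), and Amotl2 without Yap-on 1 or hepatocyte 1 (0.0689). Not called were Igfbp3, an IGF-binding protein, at a log2 difference of -1.34, Fjx1, a secreted regulator of planar polarity, at 0.89, and Myof, a membrane repair protein, at 0.86. The EGF receptor ligand Ereg at -1.64, the ectoenzyme Nt5e at -1.35 and the duct transcription factor Sox9 at 0.33 were not called either (adjusted p = 0.0759 to 0.437 over these 6). All of them but Sox9 were called without the wild-type-labelled array, in the same directions.

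Of 26 measured genes of the Hippo pathway and Yap's partners, 0 rose and 6 fell (median log2 -0.27), and without the wild-type-labelled array 4 rose and 7 fell. Vgll3, a TEAD cofactor, was at 2.90, 3.09 and 3.11 in Yap-on and at 7.99, 7.94 and 6.87 in the controls (23.6-fold lower, limma adjusted p = 0.000232). It was at 6.52 to 6.94 in the Yap-off arrays and at 3.05 to 3.28 in the control arrays left out. Wwtr1, which encodes Yap's paralog TAZ, was 7.10, 7.12 and 7.16 against 9.03, 9.16 and 7.91 (2.98-fold lower, adjusted p = 0.0259). Frmd6, an upstream activator of the pathway, fell by 1.00 and the angiomotin Amot by 0.93 on the log2 scale. The call was lost for Wwtr1 without any 1 of the other 5 arrays (largest adjusted p 0.103), for Frmd6 without any but hepatocyte 3 (0.13) and for Amot without Yap-on 1 (0.0546). Tead1, a DNA-binding partner of Yap, read 8.29, 8.16 and 7.996 against 8.41, 8.73 and 9.12, lower in every Yap-on array but not called (log2 -0.60, limma adjusted p = 0.113). With the mean of its array rows or its most variable row, Tead1 was called (log2 -0.70 and -0.80, adjusted p = 0.0269 and 0.0192). Frmd6 and Tead1 were higher, not lower, in Yap-on when all 6 control-labelled arrays were used (log2 0.67 and 1.54).

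**Figure D2:**
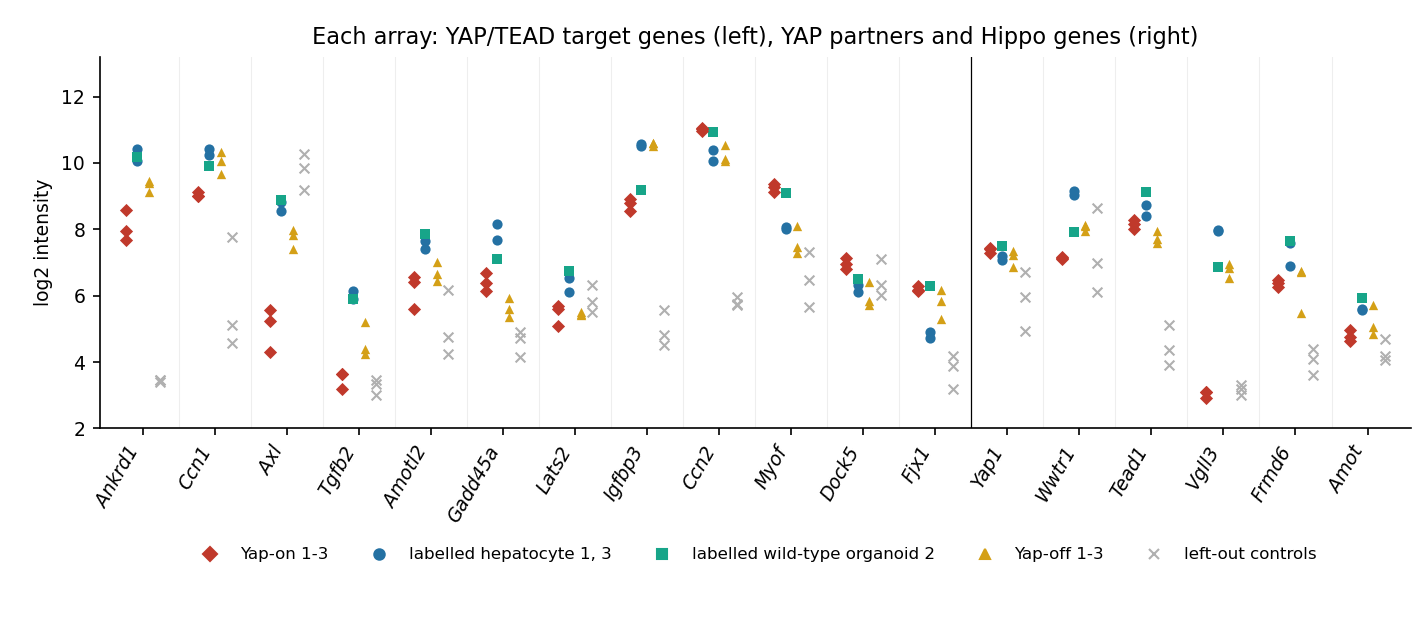
Log2 intensity in each array for YAP/TEAD target genes (left of the line) and for Yap1, its partners and Hippo genes (right of it). Red diamonds are the 3 Yap-on arrays, blue circles the control arrays labelled hepatocyte 1 and 3, green squares that labelled wild-type organoid 2, yellow triangles the Yap-off arrays and grey crosses the control arrays left out. Ankrd1, Ccn1 and Axl were lower in Yap-on than in the Lyz2-low control arrays, while for Ankrd1 and Ccn1 the control arrays left out lie lower still.

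The genes highest in Yap-on relative to these controls had control values near the bottom of the scale. The 15 called genes with the largest differences lay between 5.68 and 7.77 on the log2 scale, and for 14 of the 15 the control mean was below the lowest array median (4.14). Folds against such values depend on the background of the array, and with 8 added before taking log2 the 15 differences lay between 4.89 and 6.83. In all 15, every Yap-on array also exceeded all 6 control-labelled arrays. S100a14, a calcium-binding protein of epithelia, stood at 10.92, 11.02 and 10.73 in Yap-on against 3.15, 2.89 and 3.34. No control array of either kind came near, since those left out read 2.86 to 3.24, and the Yap-off arrays 2.91 to 3.02. It was 218-fold higher (limma adjusted p = 1.73e-06).

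Ctse, an aspartic protease of the gastric lining, was 11.17, 11.11 and 10.88 against 3.47, 3.51 and 3.56 (187-fold, adjusted p = 1.05e-06). Prap1, a secreted proline-rich acidic protein of intestine and uterus, was 10.98, 10.76 and 11.25 against 3.75, 3.61 and 3.55 (164-fold, adjusted p = 2.16e-06). Aspa, the enzyme that cleaves N-acetylaspartate, was 10.32, 10.07 and 10.32 against 2.76, 2.96 and 3.13, although it reached 6.86 in the left-out array labelled hepatocyte 2. In each of these the groups were far apart and replicates close. Muc1, a membrane mucin of ducts, was 9.71, 9.51 and 9.15 against 3.43, 3.04 and 3.05 (77.7-fold). Mmp7, a matrix metalloprotease of injured ducts, was 11.94, 11.96 and 11.93 against 3.59, 3.94 and 7.20, so that the wild-type-labelled array lay between the others. Its log2 difference was 7.03 ± 0.90 (adjusted p = 0.00387) and 8.18 without that array. The others of the 15 were Tmem54, Adgrg7, Gabrp, Phgr1, Rab25, Gpx2, Vil1, Tmem45b and Degs2. They include Gabrp, a subunit of a chloride channel gated by GABA, Rab25, a GTPase of apical recycling, Gpx2, a glutathione peroxidase of gut epithelium, and Vil1, the microvillus protein villin. Vil1 stood at 9.24, 9.12 and 8.98 against 2.67, 3.01 and 3.85 (61.2-fold, adjusted p = 6.07e-05).

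**Figure D3:**
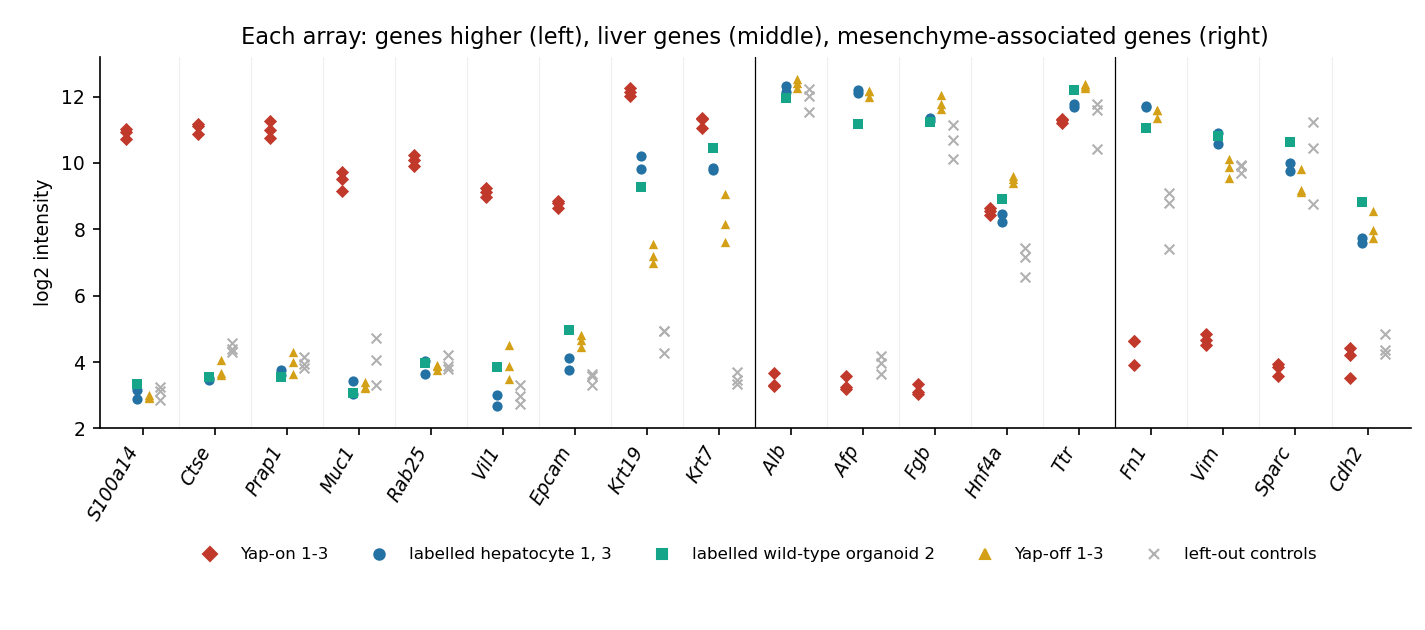
Log2 intensity in each array for genes higher in Yap-on (left), liver genes (middle) and mesenchyme-associated genes (right). Symbols are as in the plot of YAP target genes: red diamonds for Yap-on, blue circles and green squares for the Lyz2-low control arrays, yellow triangles for Yap-off and grey crosses for the control arrays left out. S100a14 and Ctse are near 11 in Yap-on and below 5 in every other array shown, Alb, Afp and Fgb fall below 4 in Yap-on, and Hnf4a overlaps between Yap-on and its controls.

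All biliary and ductal markers with a call were higher in Yap-on, and the control arrays already held several of them. Of 24 measured, 12 rose and 0 fell (median log2 1.01), or 18 and 0 without the wild-type-labelled array, and 16 lay above all 6 control-labelled arrays. Krt19 stood at 12.13, 12.25 and 12.01 in Yap-on, above the 3 control values given earlier, and was 5.14-fold higher (limma adjusted p = 0.00132). The Yap-off arrays read 7.55, 6.97 and 7.19. Krt7, at 11.32, 11.34 and 11.07, was 2.33-fold higher (adjusted p = 0.0119, and 0.062 and 0.0615 without Yap-on 1 or 2). Krt8, the keratin of simple epithelia, was 12.42, 12.41 and 12.28 against 11.92, 11.75 and 12.15, above in every array but not called (log2 0.43, adjusted p = 0.102).

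Among other duct markers, differences ranged widely, and 12 of the 24, Sox9 among them, were not called. Epcam was 8.84, 8.80 and 8.64 against 3.76, 4.13 and 4.95 (22.3-fold, limma adjusted p = 0.000215). Prom1, the membrane protein prominin of duct progenitors, was 9.56, 9.48 and 9.18 against 4.50, 4.10 and 3.86 (38.3-fold, adjusted p = 1.88e-05). Ehf, an ETS factor of epithelia, was 10.20, 10.13 and 10.20 against 3.84, 3.62 and 6.56, with the wild-type-labelled array again between (log2 5.51 ± 0.74, adjusted p = 0.00484, and 6.45 without it). Cftr, the chloride channel of ducts, was near background throughout (3.07, 2.83 and 3.27 against 2.72, 2.83 and 2.56) and was not called.

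Cell junction and polarity genes gave the largest share of higher calls among the lists, by a small margin over duct markers (12 of 24) and cholangiocyte transport genes (10 of 20). The lists were chosen with earlier results of these data known, so nothing is read from this order. Of 27 measured, 14 rose and 0 fell (median log2 1.17), or 19 and 1 without the wild-type-labelled array. The tight junction claudins Cldn7 and Cldn4 rose 20.4-fold and 18.5-fold. Cldn7 stood at 10.21, 10.40 and 10.36 against 5.47, 5.93 and 6.51. The epithelial transcription factors Elf3 and Grhl2 rose 25.1-fold and 11.2-fold, and the epithelial splicing regulator Esrp1 17.2-fold. Grhl2 was 6.90, 7.07 and 6.84 against 3.35, 3.77 and 3.23, and lay between 3.11 and 3.27 in all Yap-off and left-out control arrays. The limma adjusted p of these 5 genes lay between 1.71e-05 for Esrp1 and 0.000214 for Cldn4.

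Ion and water transport genes of cholangiocytes followed the same direction, with 10 of 20 higher and 0 lower (median log2 0.75), and the same counts without the wild-type-labelled array. Car2, a carbonic anhydrase of bicarbonate secretion, was 8.53, 8.19 and 8.45 against 3.64, 3.14 and 3.10 (34.3-fold, limma adjusted p = 1.71e-05). Ano1, a calcium-gated chloride channel, was 9.59, 9.56 and 8.83 against 4.15, 4.10 and 6.71 (log2 4.34, adjusted p = 0.0106, and 5.20 without the wild-type-labelled array). Ano1 lost the call without Yap-on 1 or 2 (adjusted p = 0.0546 and 0.0528). Slc26a9, an anion transporter of the stomach and airway, rose 13.6-fold, Kcnn4, a calcium-gated potassium channel, 12.4-fold, the water channel Aqp5 10.6-fold, and Slc12a2, the sodium-potassium-chloride importer, 7.44-fold. For the last 4 genes, Yap-on arrays lay above all 6 control-labelled arrays.

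Of 30 measured genes of stomach and intestine, 9 rose and 0 fell, or 12 and 3 without the wild-type-labelled array, although the median was small (log2 0.20). Besides Ctse, Prap1 and Vil1 these include Lgals4, a gut galectin, at 9.75, 10.60 and 10.75 against 5.79, 6.10 and 4.97 (26.9-fold, limma adjusted p = 0.00044). Pdx1, a factor of the duodenum, distal stomach and pancreas, was 5.67, 5.60 and 6.07 against 3.47, 3.43 and 3.00 (5.58-fold, adjusted p = 0.000378). Fabp2, the intestinal fatty acid-binding protein, rose 5.64-fold and Tff3, a trefoil peptide of goblet and duct cells, 8.74-fold. Tff3 was uneven within the Yap-on arrays, at 8.19, 10.59 and 8.34 against 5.27, 6.32 and 6.15, and was higher still in the Yap-off arrays (11.97 to 12.41). Its call was lost without Yap-on 1 or 3 or hepatocyte 1 or 3 (largest adjusted p 0.108).

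Of 20 keratins and squamous genes, 5 rose and 0 fell (median log2 0.06), or 6 and 2 without the wild-type-labelled array. Krt23 was 7.39, 7.41 and 6.91 against 4.46, 4.07 and 4.20 (7.97-fold, limma adjusted p = 0.000143). Sfn, the 14-3-3 protein of epithelia (stratifin), rose 5.33-fold and Lor, loricrin of cornified skin, 3.92-fold. Ly6d, a surface protein of squamous and lymphoid cells, was 11.23, 11.35 and 11.24 against 7.52, 8.43 and 3.93, and its log2 difference of 4.65 became 3.30 without the wild-type-labelled array. Its call was lost without any of the other arrays but hepatocyte 3 (largest adjusted p 0.136). Among 21 S100 proteins and annexins, 7 rose and 1 fell (median log2 0.48), or 12 and 2 without the wild-type-labelled array. Anxa1, a phospholipid-binding annexin, was 10.68, 10.47 and 10.42 against 4.45, 4.55 and 6.97 (log2 5.20 ± 0.65, adjusted p = 0.00358, and 6.02 without that array). Anxa8 rose 12.8-fold and Anxa11 3.58-fold.

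Among hepatocyte markers most calls were lower in Yap-on. Of 28 measured hepatocyte markers, 14 fell and 1 rose (median log2 -2.43), or 22 and 1 without the wild-type-labelled array, and 15 lay below all 6 control-labelled arrays. In bulk RNA, fewer cells of a type and less RNA per cell cannot be told apart. Alb, given above at 11.94 to 12.33 in the Lyz2-low control arrays, stood at 3.68, 3.29 and 3.31 in Yap-on (418-fold lower, limma adjusted p = 1.72e-06). The left-out and Yap-off arrays held it at 11.5 to 12.5, so that it was low in Yap-on alone. Trf, transferrin, was 3.49, 3.22 and 3.20 against 12.07, 12.02 and 11.68 (393-fold lower), and Hp, haptoglobin, 3.53, 3.61 and 3.25 against 11.88, 12.03 and 12.01 (365-fold lower).

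The fibrinogen chains Fgb, Fga and Fgg were 281-fold, 252-fold and 204-fold lower. With the mean of its array rows the log2 difference of Fga was -6.61 in place of -7.98. The other genes among the 15 largest decreases were Serpina1c, a protease inhibitor, Ahsg, fetuin, Hamp, the iron hormone hepcidin, Rbp4, the retinol carrier, Kng1, kininogen, Igfbp1, an IGF-binding protein, Fn1, Afp and Gpc3. For 14 of these 15 the Yap-on mean was below the lowest array median, and in 14 the Yap-on arrays lay below all 6 control-labelled arrays. The exception to the latter was Hamp, at 4.46, 3.47 and 3.15 in Yap-on, because the left-out array labelled wild-type organoid 1 read 2.94. With all 6 as controls, limma did not call Hamp, Igfbp1, Afp or Gpc3 (adjusted p = 0.138, 0.201, 0.325 and 0.331). Ahsg, Kng1 and Igfbp1 were less high in the wild-type-labelled array, and without it their log2 differences went from -8.03, -7.48 and -6.85 to -8.86, -8.14 and -8.27. Igfbp1 lost its call without Yap-on 1 (limma adjusted p = 0.0502). Vtn, vitronectin, was among the 10 lower genes with the widest gaps to all 6, at 3.44, 3.23 and 3.36 against 10.26, 10.13 and 9.50 (98.3-fold lower, limma adjusted p = 1.1e-05).

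Not every liver gene fell. Hnf4a, the master transcription factor of hepatocytes, was 8.56, 8.64 and 8.42 against 8.21, 8.46 and 8.91. The groups overlapped, with a log2 difference of 0.01 (95% interval -0.44 to 0.47, limma adjusted p = 0.973). Ttr, transthyretin, was 11.20, 11.32 and 11.29 against 11.78, 11.70 and 12.20, lower in every array but not called (log2 -0.62, adjusted p = 0.0524, and 0.0479 with arrays centred on their median). Glul, glutamine synthetase, was the member that rose, at 9.74, 9.69 and 9.64 against 7.85, 8.40 and 6.59 (4.22-fold, adjusted p = 0.0262), below the 10.58 to 10.87 of the control arrays left out. Cps1, the first enzyme of the urea cycle, was 2.89, 2.95 and 3.01 against 9.23, 9.83 and 5.07 (log2 -5.09, adjusted p = 0.0395, and -6.58 without the wild-type-labelled array). Tat, tyrosine aminotransferase, fell by 5.96 and Prox1, a hepatoblast transcription factor, by 3.62 on the log2 scale. The call was lost for Cps1 without any 1 of the other 5 arrays (largest adjusted p 0.137) and for Glul without any of these but hepatocyte 3 (0.104).

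Of 16 measured fetal and imprinted genes, 5 fell and 0 rose (median log2 -0.55), or 10 and 0 without the wild-type-labelled array. Afp was 3.58, 3.25 and 3.19 in Yap-on (358-fold lower, limma adjusted p = 1.5e-05). Gpc3, a glypican of fetal liver, was 3.18, 3.29 and 3.06 against 10.96, 11.05 and 9.96 (179-fold lower, adjusted p = 2.25e-05). Peg3, an imprinted zinc finger gene, was 4.03, 3.82 and 4.50 against 10.53, 10.84 and 10.50 (90.6-fold lower, adjusted p = 1.02e-05). For these 3 the control arrays left out were also low, at 3.62 to 4.19 for Afp, 3.39 to 3.95 for Gpc3 and 3.40 to 4.16 for Peg3. Against all 6 control-labelled arrays none of the 3 was called (adjusted p = 0.325, 0.331 and 0.411). Hmga2, a chromatin protein of fetal growth, and Igf2bp1, a fetal RNA-binding protein, fell by 2.14 and 2.03 on the log2 scale, and Igf2bp1 by 1.42 with the mean of its array rows.

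Of 28 measured mesenchyme and collagen genes, 0 rose, 7 fell and 21 were not called (median log2 -0.19). Without the wild-type-labelled array 1 rose and 13 fell. All of those 7 but Cdh2 also lay below all 6 control-labelled arrays in Yap-on. Fn1, fibronectin, was 4.63, 4.63 and 3.91 against 11.72, 11.67 and 11.06 (136-fold lower, limma adjusted p = 1.88e-05). Vim, the intermediate filament vimentin, was 4.66, 4.52 and 4.85 against 10.90, 10.58 and 10.80 (67.7-fold lower, adjusted p = 2.7e-06). Sparc, a matrix glycoprotein, was 3.93, 3.59 and 3.84 against 9.77, 9.999 and 10.62 (81.1-fold lower). Cdh2, the cadherin of mesenchyme and hepatocytes, fell by 3.99, and the transcription factors Snai2, Zeb1 and Zeb2, which repress epithelial genes, by 3.55, 3.03 and 1.46 on the log2 scale. Zeb2 lost its call without Yap-on 1 (adjusted p = 0.0531). Col1a1, the main fibrillar collagen of fibroblasts, lay at 4.06 to 4.20 in Yap-on and 4.15 to 4.48 in the controls and was not called (log2 -0.15).

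Among 26 integrins, laminins and basement membrane genes, 6 rose and 5 fell (median log2 -0.11), or 8 and 7 without the wild-type-labelled array. Itgb6, the integrin subunit of epithelia that activates latent TGF-beta, was 8.72, 8.61 and 8.68 against 3.18, 3.10 and 3.44 (43.1-fold higher, limma adjusted p = 2.7e-06). The laminin-binding subunits Itga6 and Itgb4, which pair in hemidesmosomes, rose 5.61-fold and 6.28-fold, the collagen-binding subunit Itga2 11.9-fold and the laminin chain Lamb3 5.17-fold. In the other direction, Nid1, the basement membrane linker nidogen, was 4.79, 4.11 and 3.76 against 9.34, 9.11 and 8.45 (26.8-fold lower, adjusted p = 0.000274). Dst, dystonin, a linker of the cytoskeleton, was 8.75-fold lower (adjusted p = 6.66e-05).

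Counts of 0 in these lists are at the adjusted threshold of limma. Over all 19937 genes, 4726 had an unadjusted p under 0.05 in limma, both directions together. Counts at that limit, here and below, are mostly given for 1 direction. Their background is then smaller than this number, and the share of each direction alone over all genes was not counted. Nothing is read from these counts against a background. At an unadjusted p under 0.05, genes lower in Yap-on were 0 of 24 duct markers, 0 of 20 transport genes, 1 of 27 junction genes, 3 of 30 stomach and intestine genes and 1 of 20 keratins. Genes higher in Yap-on were 1 of 26 Hippo genes, 0 of 16 fetal genes and 1 of 28 mesenchyme genes.

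**Figure D4:**
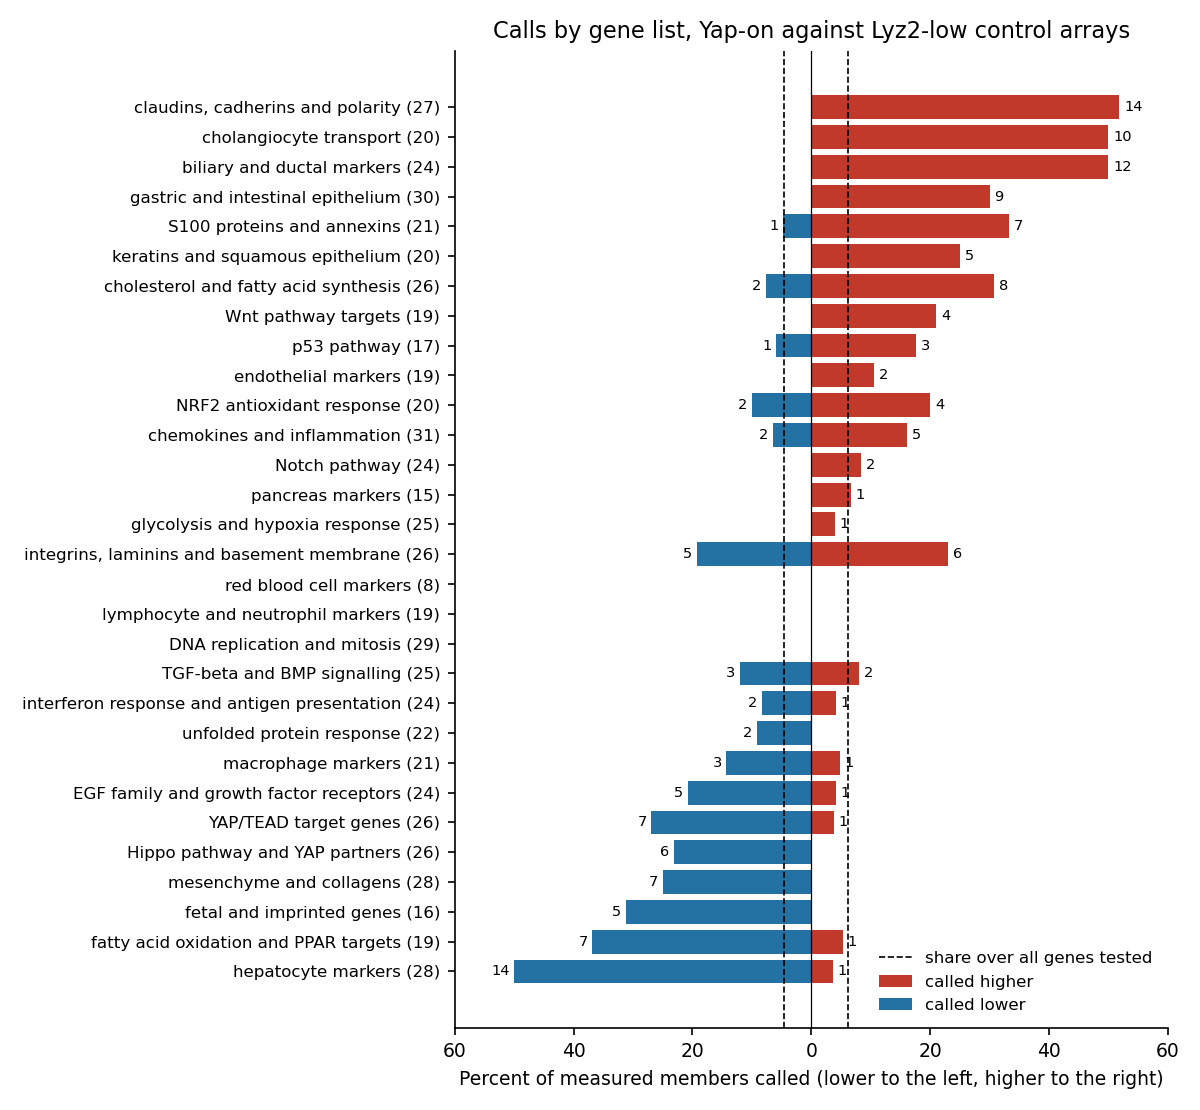
Percent of the measured members of each gene list (number measured in brackets) called higher (red, right) or lower (blue, left) in Yap-on against the Lyz2-low control arrays, with the number called at each bar. Dashed lines mark the shares over all genes tested, 6.23% higher and 4.66% lower. Cell junction, cholangiocyte transport and duct lists reach furthest to the right and hepatocyte markers furthest to the left. The macrophage list is drawn by the same calls, but the choice of control arrays by Lyz2 bears on it, and nothing is read from its bars.

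Of 24 EGF family and growth factor receptor genes, 1 rose and 5 fell (median log2 -0.15), or 7 and 8 without the wild-type-labelled array. Egfr, the EGF receptor, was 7.89, 7.66 and 7.80 against 9.59, 9.54 and 9.62 (3.48-fold lower, limma adjusted p = 0.00013), and Erbb2, its partner receptor, was 7.88, 8.08 and 7.74 against 5.80, 6.02 and 6.76 (3.26-fold higher, adjusted p = 0.00759). Both groups were separate in each case, in opposite directions. Nrg1, a ligand of the ErbB receptors, was 6.42-fold lower (adjusted p = 0.000602). Erbb3, which binds Nrg1, was not called (log2 1.66, adjusted p = 0.146), but was without the wild-type-labelled array (0.93, adjusted p = 0.00758).

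Wnt target genes gave 4 higher and 0 lower of 19, with a median of 0.00, or 8 and 3 without the wild-type-labelled array. These were Cd44, a hyaluronan receptor (log2 2.48), Lgr5, a receptor for R-spondins and a stem cell marker (1.73), Rnf43, a ubiquitin ligase that removes Wnt receptors (1.55), and Axin2, a feedback inhibitor (1.47). Cd44 lost its call without Yap-on 1 or 2 or hepatocyte 1 (largest adjusted p 0.0621) and Rnf43 without any of the other arrays but hepatocyte 1 (0.121). At an unadjusted p under 0.05, 2 of the 19 Wnt genes and 6 of the 24 Notch genes were lower. Lgr5 was 4.52, 5.12 and 5.16 against 3.07, 3.37 and 3.17 (limma adjusted p = 0.00242). Axin2 was 6.31, 5.86 and 6.43 against 4.57, 4.54 and 5.10 (adjusted p = 0.00691). Of 24 Notch pathway genes, 2 rose, the ligand Jag2 (log2 1.50, adjusted p = 0.0232) and the coactivator Maml2 (1.52, adjusted p = 0.0124), and 0 fell (median log2 0.02), or 7 and 5 without the wild-type-labelled array. The 2 higher calls are near the share of 6.23% over all genes. Jag2 lost its call without Yap-on 1 or 2 or hepatocyte 3 (largest adjusted p 0.0984) and Maml2 without Yap-on 1 or 3 (0.0582). Of 25 TGF-beta and BMP genes, 2 rose, again near that share of 6.23%, and 3 fell, against 4.66% of all genes (median log2 -0.16). Without the wild-type-labelled array 8 rose and 8 fell. The receptor Tgfbr2 was 7.79, 7.70 and 7.89 against 6.25, 6.51 and 6.43 (2.64-fold higher, adjusted p = 0.000575), and Fst, the activin antagonist follistatin, was 3.84-fold lower.

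In lipid metabolism, most calls were higher for synthesis genes and lower for oxidation genes. Of 26 measured genes of cholesterol and fatty acid synthesis, 8 rose and 2 fell (median log2 0.70), or 15 and 2 without the wild-type-labelled array. Scd2, a stearoyl-CoA desaturase, was 11.25, 11.28 and 11.15 against 8.99, 9.02 and 10.55 (3.26-fold higher, limma adjusted p = 0.0477). Cyp51, an enzyme of sterol synthesis, rose 2.77-fold, Hmgcs1, the first committed step of the mevalonate pathway, 2.24-fold, and Me1, malic enzyme, 2.90-fold. The fatty acid desaturase Fads1 and the carbohydrate-responsive factor Mlxipl fell by 2.01 and 1.62 on the log2 scale. Of 19 genes of fatty acid oxidation and PPAR targets, 1 rose and 7 fell (median log2 -0.93), or 1 and 13 without the wild-type-labelled array. Cd36, the fatty acid importer, was 2.49, 2.57 and 2.65 against 9.51, 9.52 and 7.82 (83.3-fold lower, adjusted p = 0.0003). Ppara, the nuclear receptor that drives this program, was 4.81, 4.95 and 4.90 against 9.08, 9.33 and 6.59 (10.9-fold lower, adjusted p = 0.0234, and log2 -4.32 without the wild-type-labelled array). Pparg, its lipid-storage relative, was the gene that rose (4.07-fold, adjusted p = 0.0107, and 0.0529 without Yap-on 2). The calls of Scd2, Cyp51, Hmgcs1 and Ppara were lost without any 1 of the other 5 arrays (largest adjusted p 0.157, 0.0781, 0.113 and 0.0947), and that of Me1 without any of these but hepatocyte 3 (0.0801). With the mean of its array rows Me1 was not called (log2 0.95, adjusted p = 0.113).

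Counts of hypoxia and DNA replication genes changed with the wild-type-labelled array. Of 25 glycolysis and hypoxia genes 1 rose and 0 fell (0 lower also at an unadjusted p under 0.05, median log2 -0.19), and without that array 2 rose and 13 fell (-0.63). The gene that rose, Car9, a carbonic anhydrase of hypoxic and gastric epithelium, was 9.22, 8.97 and 8.33 against 4.56, 4.66 and 3.19 (26.1-fold, limma adjusted p = 0.000899). Adm, the hormone adrenomedullin, was 5.52, 5.98 and 5.49 in Yap-on and 10.66, 10.53 and 4.60 in the controls, and Bnip3, a mitophagy receptor, was 8.38, 8.68 and 8.001 against 11.02, 11.02 and 7.04. In both, the Yap-on arrays lay between the control arrays, and neither was called (adjusted p = 0.324 and 0.495). Of 29 DNA replication and mitosis genes, 0 rose and 0 fell by limma (1 higher and 0 lower at an unadjusted p under 0.05, median log2 0.32), and without that array 12 rose and 0 fell (0.81). Pcna, the sliding clamp of replication, was 9.97, 10.22 and 10.85 against 8.66, 9.10 and 10.36. The clamp gene was thus as high in the wild-type-labelled array as in Yap-on.

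Sex-linked genes differed among the control arrays in the same way. Xist, the RNA that silences an X chromosome in female cells, was 3.14, 3.15 and 3.20 in Yap-on and 8.82, 8.999 and 3.14 in the controls. Eif2s3y, a gene of the Y chromosome, was 7.42, 7.13 and 7.40 in Yap-on and 2.78, 2.88 and 7.05 in the controls. Yap-on thus shared this pattern with the wild-type-labelled array and not with those labelled hepatocyte 1 and 3, and Kdm5d and Uty, also Y-linked, followed it. Of 8 sex-linked genes measured, limma called 0 (2 higher and 1 lower at an unadjusted p under 0.05), and without the wild-type-labelled array 3 higher and 1 lower. On the X or Y chromosome lie 30 of the higher calls (2.41%) and 40 of the lower (4.31%), against 3.75% of all genes tested. Other genes in which that array departed from both hepatocyte-labelled ones were Igfbp1 (11.67, 11.74 and 7.44), Pdk4, a brake on glucose oxidation (10.35, 10.29 and 5.004), Fabp1, the liver fatty acid-binding protein (8.46, 8.37 and 4.03), Hmox1, heme oxygenase (11.92, 11.98 and 9.06), and Id1, an inhibitor of differentiation (7.58, 7.63 and 10.48). The part of sex or of that library in the comparison was not tested. Leaving the array out cannot test it for sex, because Xist and the Y-linked genes then divide the arrays exactly as the groups do.

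**Figure D5:**
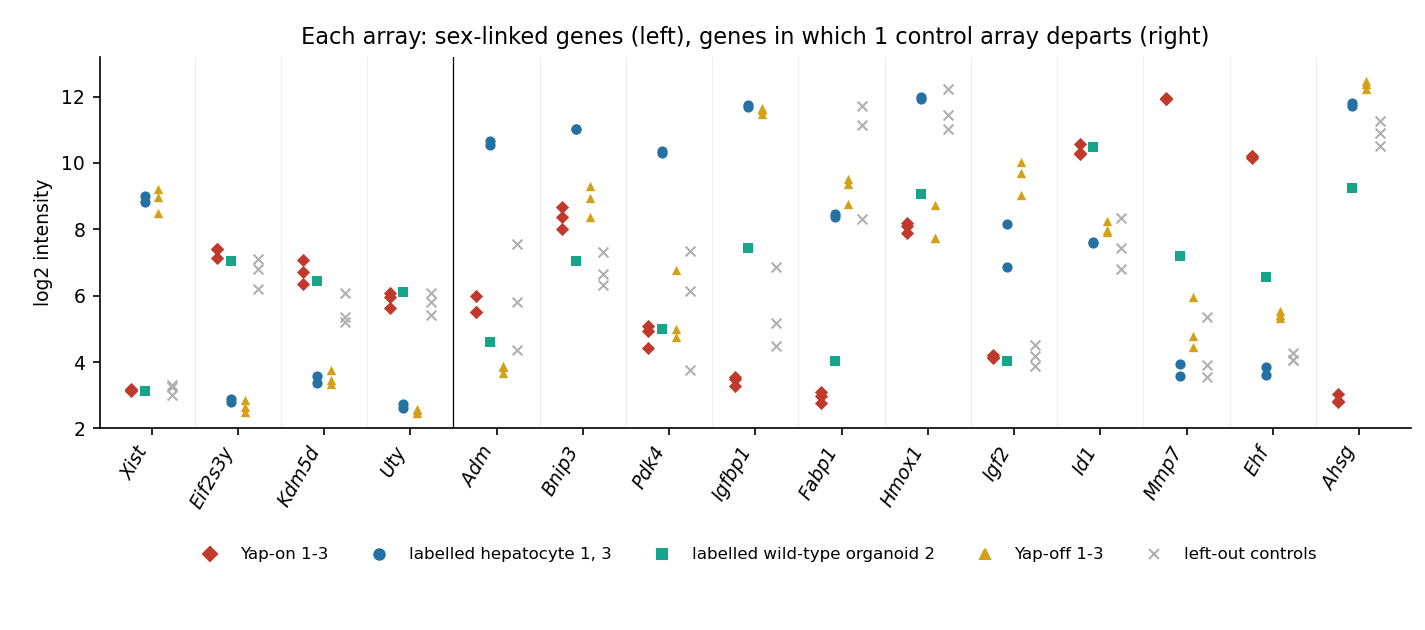
Log2 intensity in each array for sex-linked genes (left of the line) and for genes in which the control array labelled wild-type organoid 2 (green square) departs from those labelled hepatocyte 1 and 3 (blue circles). Red diamonds are Yap-on, yellow triangles Yap-off and grey crosses the control arrays left out. For Xist, Eif2s3y, Kdm5d, Uty and Id1 the green square lies with the Yap-on arrays, whereas for Mmp7 and Ehf it lies between the groups.

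Most markers of other liver cells were low in all 6 arrays. The choice of control arrays touches the 21 macrophage markers, Lyz2 among them. They are therefore described without a test, and their bars in the plot of gene lists are not read. Their array medians were 3.37 to 4.46 in the Lyz2-low control arrays, 3.12 to 3.34 in Yap-on and 10.3 to 11.2 in the control arrays left out. Their summed intensity was 655 to 845 in the Lyz2-low control arrays and 1042 to 1236 in Yap-on. Csf1r, the receptor for the growth factor of macrophages, was 4.70, 4.79 and 4.87 in Yap-on against 6.86, 7.13 and 6.37, whereas Cd14, a receptor for bacterial lipopolysaccharide, was 9.88, 9.55 and 9.78 against 6.54, 6.57 and 8.43. Cd14 alone made up most of the summed intensity in Yap-on, so that sum does not show the list as a whole to be higher there. Of 19 endothelial markers 2 rose and 0 fell, or 2 and 7 without the wild-type-labelled array, with array medians of 3.26 to 3.59 in the controls and 3.33 to 3.43 in Yap-on. They were Aqp1, a water channel also found in bile ducts, at 5.95, 7.49 and 6.25 against 4.14, 3.65 and 3.23, and Flt1, a VEGF receptor, at 5.69, 6.34 and 4.41 against 3.57, 3.42 and 3.15. In 2 of the 3 control arrays left out both were above every Yap-on array, and Flt1 lost its call without any of the other arrays but Yap-on 3 (largest adjusted p 0.131). Of 19 lymphocyte and neutrophil and 8 red blood cell markers, limma called 0 (2 and 0 at an unadjusted p under 0.05). Without the wild-type-labelled array, 0 of the lymphocyte and neutrophil markers rose and 4 fell, and 1 of the red blood cell markers rose and 0 fell. Of 15 pancreas markers 1 rose, Pdx1, and 0 fell, or 1 and 2 without that array.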

How the data were processed

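RNA of 12 libraries was read on Affymetrix MoGene1.0 st arrays, and 6 of them enter the comparison. The authors deposited an intensity per array row, made with RMA per the submitters' processing notes, which give no version. RMA yields log2 values, whereas the deposited intensity values are linear, probably by back-transformation. Their log2 was used without further normalization. The genome build of the array annotation was not stated. Background subtraction in RMA compresses low values, and the number of arrays limits the precision.

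Of 34760 rows, 22961 were in the probe table used here and 11799 were not. Rows naming several genes (1321) were left out, 21640 named a single gene, and 954 genes had more than 1 row, of which that with the highest mean stood for the gene. This left 19937 genes. The groups were compared with limma 3.58.1 in R 4.3.3 (lmFit and eBayes), with only the 6 arrays in the fit. P-values were adjusted by Benjamini-Hochberg over all genes, and genes with an adjusted p under 0.05 were called. A permutation test of 3 arrays against 3 cannot go below p = 0.1 and was not used. On simulated data for this comparison (19937 genes), 100 genes were raised by a log2 of 1, 100 by a log2 of 2, and none were lowered. Each simulated group had the spread of its own real arrays. The fit recovered 55% and 86% of them, and 10.8% of its calls (17) were false, a share above the adjusted p limit of 0.05. This share comes from 1 simulated set and depends on how many genes change, so the figure does not carry over to the 2172 calls made here. Those calls may still hold more false ones than the limit of 0.05 states.

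The gene lists and the control arrays were chosen with earlier results of these data known. Genes named by rule were Yap1 and Lyz2, the 15 called genes in each direction with the largest log2 difference and no overlap between the groups, and the 10 in each direction with the widest gap to all 6 control-labelled arrays. The rule also covers the 4 members of each list with the largest log2 difference, called or not, and all YAP/TEAD, Hippo and sex-linked members. Other genes, among them Krt19, Krt7, Krt8, Epcam, Hnf4a, Ttr, Cps1, Tat, Cyp2e1, Cftr and Col1a1, were chosen after their values were seen. Alternatives were other normalizations, row choices, filters, control sets and fits, a replicate block, and leaving out each array. No scan date or slide was used.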

Additional observations from a re-analysis of the deposited data

Results flagged for a closer look

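Arrays outside the comparison stood above its controls in 4 of the gene lists. Each is given as the median log2 intensity of the list in an array, for lists in which the lowest array of the other group exceeded every Lyz2-low control array by at least 1 log2 unit, a minimum set after seeing the data. None of these differences was tested. In the control arrays left out, macrophage markers, on which the choice of arrays bears through Lyz2, had medians of 10.3 to 11.2, against 3.37 to 4.46 in the Lyz2-low control arrays. Endothelial markers stood at 7.33 to 9.71 there against 3.26 to 3.59, and interferon response and antigen presentation genes at 6.87 to 7.41 against 3.44 to 4.18. In the Yap-off arrays, hepatocyte markers had medians of 10.1 to 10.4 against 6.88 to 8.20 in the Lyz2-low control arrays and 3.31 to 3.45 in Yap-on.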

How the results depend on the processing

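Of 127 named genes that were called, none changed direction under renewed quantile normalization, centring or either other choice of row. In the other settings named here the direction could not change. Leaving out the lowest 30% of genes, all 12 arrays in the fit, a trend with robust eBayes and the replicate block keep the same log2 difference. No call had overlap between the 3 Yap-on and the 3 Lyz2-low control arrays. Array weights, log2(value + 8) or leaving out any 1 array therefore could not reverse it. For these settings only lost calls are informative. All 12 arrays in the fit cost 12 of the 127 calls (Amotl2, Ccn1, Dock5, Wwtr1, Frmd6, Scd2, Fas, Phlda3, Dnajb9, Irf1, Lcn2 and Flt1). The replicate block cost 13 (Lats2, Dock5, Frmd6, Ly6d, Rnf43, Scd2, Fas, Eda2r, Phlda3, Dnajb9, Cxcl5, Flt1 and Cyp51), and log2(value + 8) cost 10 (Gadd45a, Lats2, Ly6d, Scd2, Ppara, Dnajb9, Cxcl5, Flt1, Cps1 and Tff3). Renewed quantile normalization cost 3 (Ly6d, Cxcl5 and Cps1), the robust trend Dock5, the mean of rows Me1 and the most variable row Cxcl5. Between 19 and 32 were lost when an array other than the wild-type-labelled array was left out.

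The choice of control arrays mattered more. The hepatocyte-labelled arrays as controls gave 1759 calls (1252 higher, 507 lower), the wild-type-labelled ones 699 calls (488 higher, 211 lower) and all 6 arrays 1053 (791 and 262). Of the 127 called genes, 2, 9 and 6 reversed. The values below also include Igfbp3, Tead1, Adm, Bnip3, Ereg and Nt5e, which were not called. Against hepatocyte-labelled controls the reversed log2 differences were 0.086 for Ankrd1, 0.11 for Igfbp3, 0.34 for Frmd6 and 1.13 for Tead1. Against wild-type-labelled controls they were 2.38 for Ankrd1, 1.01 for Gadd45a, 2.50 for Ccn1, 2.33 for Igfbp3, 0.99 for Frmd6, 1.95 for Tead1, -0.017 for Maml2, 0.75 for Adm, 1.35 for Bnip3, -1.05 for Irf1, 1.21 for Lcn2, -1.24 for Aqp1, -1.60 for Flt1, 0.65 for Ereg and 0.13 for Nt5e. Against all 6 they were 1.23 for Ankrd1, 0.28 for Gadd45a, 1.02 for Ccn1, 1.22 for Igfbp3, 0.67 for Frmd6, 1.54 for Tead1, 0.13 for Bnip3, -0.41 for Irf1 and -0.17 for Flt1. Hnf4a, which was not called, read between -0.145 and 0.205 when each array was left out in turn, below 0 without Yap-on 2, hepatocyte 1 or hepatocyte 3 (-0.036, -0.145 and -0.0195). The cause of these reversals was not tested.

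Array weights gave 6387 calls (3430 higher, 2957 lower), an adjusted p under 0.01 gave 1074 (628 and 446) and a 2-fold minimum 1406 (802 and 604). Leaving out each array gave 1131 to 6468 calls, 653 to 3545 higher and 471 to 2923 lower. Leaving X and Y genes out of the count, an alternative chosen after seeing the data, gave 2102. Deviations of same-numbered arrays from their group means correlated at r = 0.033, -0.172 and -0.059, and those of different-numbered arrays at -0.13 to 0.15. With groups of 3 and 1 control array that stands apart, these values cannot decide whether the numbers pair the arrays. The replicate block gave 1622 calls (943 higher, 679 lower). Values near the array medians lie close to background, where fold changes are compressed. The controls were selected on a measured gene and carry mixed labels, and the array labelled wild-type organoid 2 differs from the others in sex-linked genes.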

Other observations

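The lists of stress and inflammation genes are described here. Of 20 measured NRF2 antioxidant genes, 4 rose and 2 fell (median log2 0.03), or 7 and 4 without the wild-type-labelled array. Gsta4, a glutathione transferase that clears lipid aldehydes, was 11.32, 11.16 and 11.30 in the Yap-on arrays against 8.96, 8.77 and 9.96 in the Lyz2-low control arrays (4.09-fold higher, limma adjusted p = 0.00763). Gstm1, another glutathione transferase, was 9.23, 9.89 and 9.03 against 11.44, 11.48 and 11.67 (4.42-fold lower, adjusted p = 0.00174). The groups were separate for both, so enzymes of the same family lay in opposite directions. Of 17 p53 pathway genes, 3 rose and 1 fell (median log2 0.25), or 7 and 3 without the wild-type-labelled array. Eda2r, a receptor of the TNF receptor family, rose by a log2 of 0.97 and Phlda3, an inhibitor of Akt, by 0.71, while the death receptor Fas fell by 0.97 (adjusted p = 0.0241, 0.0143 and 0.0276). Eda2r lost its call without Yap-on 1 or 3 or hepatocyte 1 or 3 (largest adjusted p 0.0933), Phlda3 without any 1 Yap-on array (0.0744) and Fas without any 1 Yap-on array or hepatocyte 3 (0.0889). Of 22 genes of the unfolded protein response, 0 rose and 2 fell (median log2 -0.34), with 0 higher and 10 lower at an unadjusted p under 0.05 by limma. Without the wild-type-labelled array 0 rose and 10 fell. Dnajb9, a chaperone cofactor of the endoplasmic reticulum, fell by 0.88 on the log2 scale (adjusted p = 0.0412), a call lost without any 1 of the other 5 arrays (largest adjusted p 0.14).

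Of 24 interferon response and antigen presentation genes, 1 rose and 2 fell (median log2 -0.12), or 2 and 9 without the wild-type-labelled array. Over all genes, 6.23% were called higher and 4.66% lower. Ifit2, an interferon-induced antiviral protein, was 2.64, 2.97 and 2.95 in Yap-on against 5.98, 5.49 and 5.25 (6.61-fold lower, limma adjusted p = 0.000408), so that Yap-on lay at background. Irf1, an interferon-regulated transcription factor, rose by a log2 of 0.88 (adjusted p = 0.0157), a call lost without any 1 Yap-on array or hepatocyte 3 (largest adjusted p 0.07). Of 31 chemokines and inflammation genes, 5 rose and 2 fell (median log2 -0.11), or 9 and 7 without the wild-type-labelled array. Cx3cl1, the membrane-bound chemokine fractalkine, was 7.17, 7.42 and 7.47 against 5.11, 5.11 and 5.28 (4.55-fold higher, adjusted p = 0.000112). Lcn2, the iron-sequestering protein lipocalin, was 10, 9.96 and 9.01 against 11.62, 11.73 and 11.56 (3.94-fold lower, adjusted p = 0.00521). Both were separate between the groups. Cxcl5, a neutrophil attractant, was 7.75, 7.65 and 7.52 against 3.47, 3.43 and 6.44. Its log2 difference of 3.19 (adjusted p = 0.0495) became 4.19 without the wild-type-labelled array, and its call was lost without any 1 of the other 5 arrays (largest adjusted p 0.163). Ccl20, a chemokine of mucosal epithelium, was 8.34, 8.20 and 7.999 against 6.20, 4.86 and 8.19, where the wild-type-labelled array lay among the Yap-on arrays, and it was not called.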
